A study of Mus musculus with 24 samples.

Results

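The Sprouty proteins (Spry1, Spry2, Spry4), the SPRED proteins (Spred1, Spred2, Spred3), ERRFI1 and IER3 are inhibitors or modulators of growth factor signalling. Their transcripts were followed here in mouse cortical neurons given the growth factor BDNF, the BET inhibitor IBET858, or both. Members were the probe sets that the array annotation gives to one of these 8 genes and to no other gene. There were 24 such probe sets among 45101 on the array, and the 8 genes were among 18193 genes with a probe set of their own. No probe set of these genes was left out for naming several genes. Spred1 had 8 probe sets, Spred2 had 5, Spry4 had 4, Spry2 and Errfi1 had 2 each, and Spry1, Spred3 and Ier3 had 1 each.

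Sprouty and SPRED proteins are made in response to receptor tyrosine kinase signalling and restrain the Ras-ERK pathway downstream of the receptor. SPRED proteins bind neurofibromin, a GTPase-activating protein that switches Ras off, and bring it to the membrane. ERRFI1, also called MIG6, binds the kinase domain of the EGF receptor family and blocks it, and IER3 is an immediate early protein that is phosphorylated by ERK and affects survival and the duration of ERK signalling. In neurons BDNF acts through TrkB, a receptor tyrosine kinase that feeds the same Ras-ERK pathway.

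The neurons were primary cortical cells from E18 mouse embryos, held in culture for 1 week before treatment, and total RNA was hybridised to 24 Affymetrix arrays. Cultures received DMSO, IBET858 at 1 µM, BDNF at 50 ng/ml, or BDNF with IBET858, and were harvested at 2 h or 12 h, which made 8 groups of 3 arrays. IBET858 is a small molecule that keeps BET proteins, readers of acetylated histones, off chromatin. The labels give no strain, sex or genotype, do not say whether DMSO was added with BDNF, and leave unsaid whether arrays of a group stem from different cultures, so the spread behind the p-values may be technical. Each value is a log2 intensity from which the median of that probe set over the 24 arrays had been subtracted, so a value of 0 is the middle array, and neither how abundant a transcript was nor whether it was above background can be read from the table. In such bulk cultures, fewer cells of a type and less RNA per cell cannot be told apart.

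A gene's value was the mean of its probe sets. Differences between groups are log2 differences from limma, each followed by its standard error (±), and every group held n = 3 arrays. A gene is called where the p-value adjusted by Benjamini and Hochberg over all 18193 genes was under 0.05, and "rose", "fell", "higher" and "lower" are used below only for called differences. The first DMSO array at 2 h stood apart from its group (SD around the group mean of 0.178 over all genes) and so did the third IBET858 array at 12 h (0.157). The other 22 arrays lay between 0.072 and 0.117. The first DMSO array at 2 h was the lowest of its group for every member except Spred1, where it was the highest, and values without it are given beside the results named below that it moved most.

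The stretch of 250 bases before the transcript start was taken from RefSeq (GRCm38.p6) for the members whose BDNF response differed most with IBET858 at 2 h and for those with a motif match, 7 of the 8 members being in the table; Spry4 is named only. The letters searched, on both strands, were the cyclic AMP response element TGACGTCA, its shorter form TGACG, which every full element also holds, the AP-1 site TGANTCA, the ETS site CCGGAAG, the EGR site GCGNGGGCG and the E-box CACGTG, together with the CArG box and the NF-kappaB site. Capitals mark the matches, and each line runs 5′ to 3′ toward the start.
Spry1, chr3:37639697-37639946, plus strand: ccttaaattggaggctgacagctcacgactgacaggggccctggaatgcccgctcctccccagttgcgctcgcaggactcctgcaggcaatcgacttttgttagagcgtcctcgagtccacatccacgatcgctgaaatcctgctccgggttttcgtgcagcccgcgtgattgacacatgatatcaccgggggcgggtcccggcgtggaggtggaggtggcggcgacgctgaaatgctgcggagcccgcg
Spry2, chr14:105896820-105897069, minus strand: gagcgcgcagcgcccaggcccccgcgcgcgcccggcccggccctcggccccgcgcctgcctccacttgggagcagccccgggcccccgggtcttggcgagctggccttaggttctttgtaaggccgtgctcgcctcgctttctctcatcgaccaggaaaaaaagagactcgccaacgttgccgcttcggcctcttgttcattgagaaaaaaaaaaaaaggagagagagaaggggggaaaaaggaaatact
Spred1, chr2:117120821-117121070, plus strand: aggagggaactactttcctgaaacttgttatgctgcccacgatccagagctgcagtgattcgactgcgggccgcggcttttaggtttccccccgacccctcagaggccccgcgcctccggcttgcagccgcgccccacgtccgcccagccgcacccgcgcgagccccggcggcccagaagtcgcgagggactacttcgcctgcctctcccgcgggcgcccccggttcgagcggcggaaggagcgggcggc
Spred2, chr11:19924192-19924441, plus strand: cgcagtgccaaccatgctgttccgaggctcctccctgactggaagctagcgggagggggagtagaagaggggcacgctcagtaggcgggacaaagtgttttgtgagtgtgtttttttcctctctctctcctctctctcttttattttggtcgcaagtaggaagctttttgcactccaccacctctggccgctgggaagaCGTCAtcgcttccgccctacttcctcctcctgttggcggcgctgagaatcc
Errfi1, second listed start, chr4:150854820-150855069, plus strand: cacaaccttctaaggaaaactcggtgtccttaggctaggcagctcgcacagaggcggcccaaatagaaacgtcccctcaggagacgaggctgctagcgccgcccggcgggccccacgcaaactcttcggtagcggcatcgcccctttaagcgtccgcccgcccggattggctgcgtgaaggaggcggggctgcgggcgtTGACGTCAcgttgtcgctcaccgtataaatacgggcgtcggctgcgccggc
Ier3, chr17:35821463-35821712, plus strand: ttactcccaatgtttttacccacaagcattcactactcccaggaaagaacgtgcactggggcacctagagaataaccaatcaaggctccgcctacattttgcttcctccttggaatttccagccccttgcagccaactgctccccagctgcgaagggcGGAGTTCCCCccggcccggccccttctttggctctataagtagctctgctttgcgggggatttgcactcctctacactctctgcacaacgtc

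Errfi1 held the full response element 51 to 44 bases before its second start, a match found in 1.55% of 32851 promoter windows of the same length. The stretch before the other listed Errfi1 start (chr4:150853546-150853795) held no match to any of the 8 motifs. Spred2 held the shorter form on the minus strand 51 to 47 bases before its start, and 17.8% of all windows hold one. Ier3 held an NF-kappaB match on the minus strand 92 to 83 bases before its start, against 3.9% of all windows. The windows of Spry1, Spry2, Spred1 and Spred3 (chr7:29168648-29168897) held none of the letters searched. Of all windows, 6.75% held the AP-1 site, 6.91% the ETS site, 4.7% the EGR site, 6.02% the E-box and 1.47% the CArG box. A match is a description of the letters and not a shown binding site, and the absence of a match says only that these letters are not in this window.

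BDNF changed most of the members at both times. At 2 h, 6 of the 8 rose (Spry2, Spry4, Spred1, Spred2, Spred3 and Errfi1), while 9.79% of all genes did, and 1 fell (Spry1), while 18.1% of all genes did. At 12 h, 7 of the 8 rose, against 16.9% of all genes, and Spry1 was again the 1 that fell, against 24.2%. The median BDNF difference over the 8 members was 0.92 at 2 h and 1.16 at 12 h, beside medians over all genes of -0.0043 and -0.012. Members were proposed with earlier results of these data known, so these counts describe the 8 genes and do not support a statement about the family.

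IBET858 on its own acted on fewer of them at 2 h. Spry1, Spry4, Errfi1 and Ier3 rose and Spred1 fell, that is 4 higher and 1 lower of 8, where 5.65% of all genes were higher and 9.27% lower. At 12 h Spry1, Spred1, Errfi1 and Ier3 rose and Spred2 and Spred3 fell, 4 higher and 2 lower, beside 22.9% and 25.8% of all genes, so at this time the share called in the whole table was also large. The BDNF and IBET858 comparisons at each time share their DMSO arrays.

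**Figure D1:**
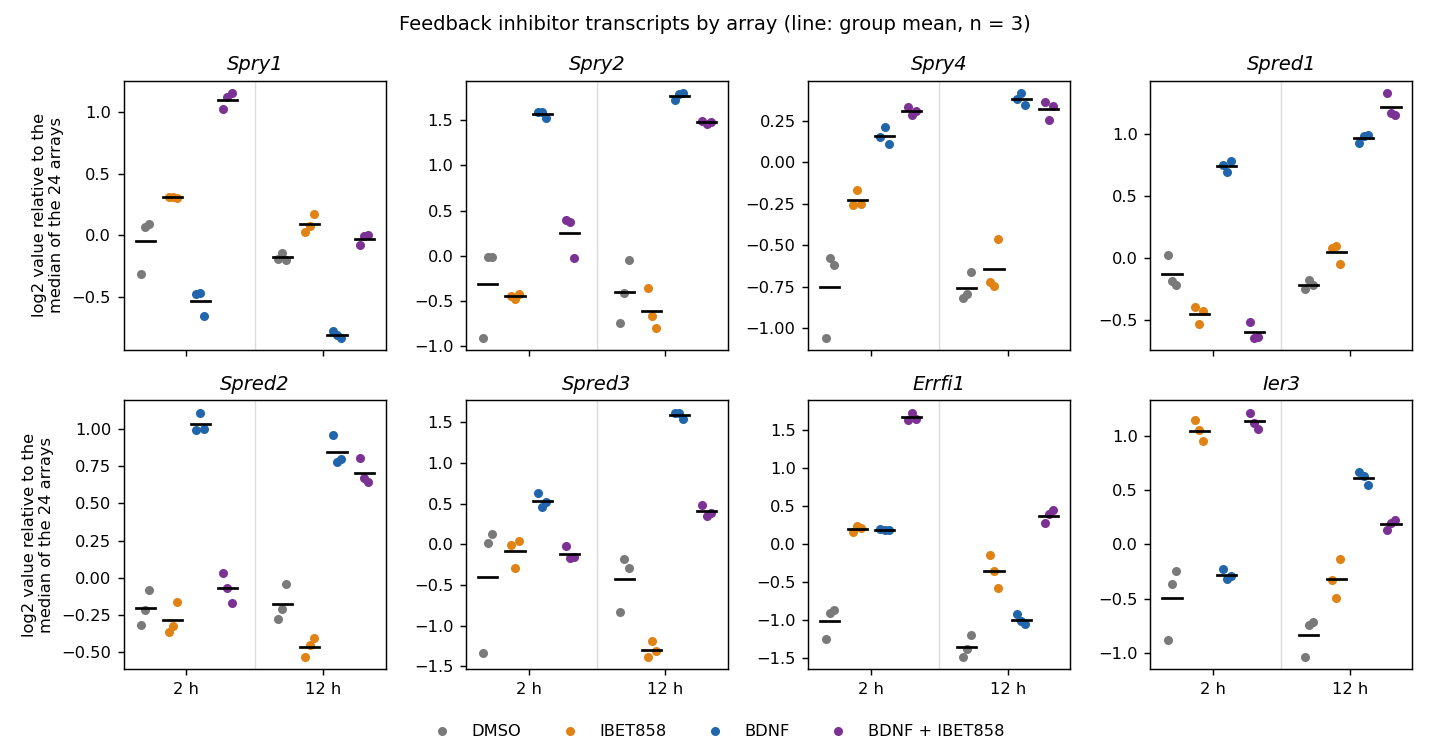
Values of the 8 genes on each of the 24 arrays (log2 relative to the median of the 24 arrays; each gene has its own vertical scale), with the 3 arrays of a group as points and the group mean as a line. At 2 h the Spry2, Spred1 and Spred2 points for BDNF with IBET858 lie below those for BDNF, and at 12 h the Spry2 points of these groups lie at 1.46 to 1.49 and 1.72 to 1.80.

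Spry2, a Sprouty protein that is induced by ERK signalling and interferes with Ras and RAF activation, had the highest BDNF difference of the 8 genes at both times. At 2 h its values were -0.91, -0.011 and -0.0096 on the DMSO arrays and 1.59, 1.59 and 1.52 on the BDNF arrays. IBET858 arrays read -0.45, -0.47 and -0.43, and arrays with both agents 0.39, 0.37 and -0.022. BDNF arrays were thus above all others at 2 h, arrays with both agents lay between, and those with both overlapped the DMSO arrays because of 1 array at -0.022. BDNF raised Spry2 by 1.87 ± 0.18 (3.67-fold, adjusted p = 7.3e-08), and with IBET858 present it raised it by 0.70 ± 0.18 (adjusted p = 0.00806). The interaction, which is the BDNF difference with IBET858 minus the BDNF difference without it, was -1.18 ± 0.26 (adjusted p = 0.00483). IBET858 without BDNF gave -0.14 with a 95% interval from -0.52 to 0.24, and without the first DMSO array -0.44 (adjusted p = 0.0506). It was called with array weights (-0.42, adjusted p = 0.0043). After quantile normalization of the deposited values the interaction was -0.90 and not called (adjusted p = 0.0522).

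By 12 h the Spry2 values of the cultures with BDNF lay closer together than at 2 h, though without overlap. DMSO arrays read -0.75, -0.41 and -0.050, and IBET858 arrays -0.36, -0.67 and -0.80. BDNF arrays read 1.72, 1.79 and 1.80, and arrays with both agents 1.49, 1.46 and 1.48. The groups with BDNF did not overlap the groups without it. With both agents Spry2 lay -0.29 from BDNF alone (interval -0.67 to 0.092, adjusted p = 0.220), which was not called. Of its 2 probe sets, at -0.51 and -0.077 in this comparison, 1 was called lower. BDNF raised Spry2 by 2.17 ± 0.18 without IBET858 and by 2.09 ± 0.18 with it (adjusted p = 9.12e-09), and the interaction was -0.085 with an interval from -0.63 to 0.46. In cultures with both agents Spry2 rose by 1.23 ± 0.18 from 2 h to 12 h, while with BDNF alone it differed by 0.20 (interval -0.18 to 0.59).

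Spry4, another Sprouty protein induced by growth factors, rose with BDNF whether or not IBET858 was present. At 2 h it read -1.06, -0.58 and -0.62 on DMSO arrays and 0.15, 0.21 and 0.11 on BDNF arrays. IBET858 arrays read -0.26, -0.17 and -0.25, and arrays with both agents 0.33, 0.28 and 0.31. The 4 groups did not overlap at 2 h and rose in the order DMSO, IBET858, BDNF and both, although the last step, 0.15 with an interval from -0.042 to 0.34, was not called. It was called with array weights (0.16, adjusted p = 0.0344) and without both arrays that stand apart (adjusted p = 0.0189). BDNF raised Spry4 by 0.91 ± 0.093 (adjusted p = 1.31e-07) and IBET858 raised it by 0.52 ± 0.093 (adjusted p = 0.000303). With IBET858 present BDNF raised it by 0.54 ± 0.093 (adjusted p = 0.000168). The interaction of -0.37 (interval -0.64 to -0.098, adjusted p = 0.0938) was not called, and 2 of 12 fits that left out 1 array called it. Without the first DMSO array it was -0.22 (adjusted p = 0.225). The 4 Spry4 probe sets gave IBET858 differences from 0.085 to 1.01 at 2 h, and 2 of them were called on their own.

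At 12 h the BDNF difference of Spry4 was called and the IBET858 difference was not. DMSO arrays read -0.82, -0.79 and -0.66, and IBET858 arrays -0.72, -0.74 and -0.46. BDNF arrays read 0.38, 0.41 and 0.34, and arrays with both agents 0.36, 0.25 and 0.34. The groups without BDNF overlapped each other, as did the groups with it, and no array with BDNF was as low as any without. BDNF raised Spry4 by 1.14 ± 0.093 without and by 0.96 ± 0.093 with IBET858, and IBET858 alone gave 0.12 (interval -0.075 to 0.31). After quantile normalization that difference was 0.53 and called (adjusted p = 3.45e-06).

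Spry1 moved the other way. This Sprouty protein shares the inhibitory role of Spry2, but its transcript fell with BDNF, rose with IBET858, and rose further with both at 2 h. At 2 h it read -0.31, 0.070 and 0.093 on DMSO arrays and -0.47, -0.46 and -0.65 on BDNF arrays. IBET858 arrays read 0.31, 0.31 and 0.30, and arrays with both agents 1.03, 1.12 and 1.15. The 4 groups did not overlap, with BDNF arrays lowest and arrays with both agents highest. Spry1 fell by 0.48 ± 0.079 with BDNF (adjusted p = 6.19e-05), whereas in the presence of IBET858 it raised Spry1 by 0.79 ± 0.079 (adjusted p = 1.5e-07). The interaction was 1.27 ± 0.11 (adjusted p = 1.08e-07), and arrays with both agents lay 3.09-fold above those with BDNF alone. IBET858 alone raised Spry1 by 0.36 ± 0.079, and by 0.23 (adjusted p = 0.0111) without the first DMSO array.

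At 12 h BDNF again lowered and IBET858 again raised Spry1, and arrays with both agents no longer stood above all others. DMSO arrays read -0.19, -0.14 and -0.20, and BDNF arrays -0.77, -0.81 and -0.83. IBET858 arrays read 0.029, 0.077 and 0.17, and arrays with both agents -0.080, -0.0070 and 0.0070. BDNF arrays were again the lowest of the 4 groups, and IBET858 arrays were now the highest. Spry1 fell by 0.63 ± 0.079 with BDNF, rose by 0.27 ± 0.079 with IBET858, and with both agents it lay 0.77 ± 0.079 above BDNF alone (adjusted p = 3.18e-08). The interaction was 0.51 ± 0.11 (adjusted p = 0.00309), a change of -0.76 ± 0.16 from 2 h (adjusted p = 0.00314).

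**Figure D2:**
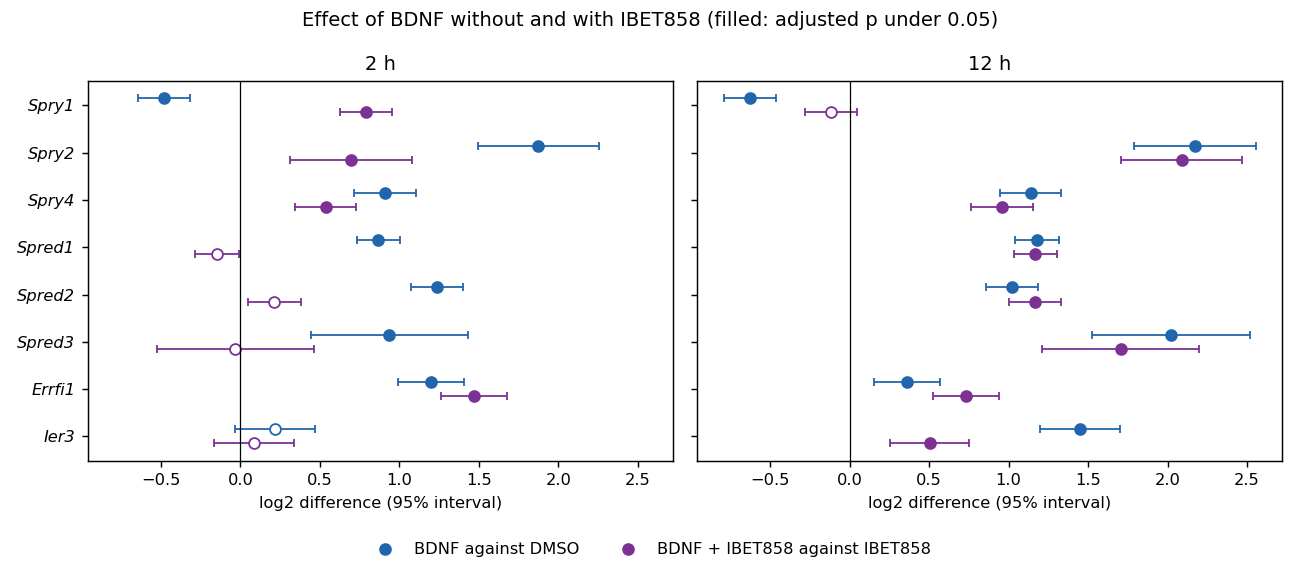
Log2 difference made by BDNF in each gene, without IBET858 (blue, BDNF against DMSO) and with IBET858 (purple, both agents against IBET858), at 2 h and 12 h. Bars are 95% intervals from the model with 3 arrays per group, and filled points are called. At 2 h Spry2, Spred1 and Spred2 have blue points at 1.87, 0.87 and 1.24 and purple points at 0.70, -0.15 and 0.21, and at 12 h purple points at 2.09, 1.17 and 1.17.

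Spred1, the SPRED protein whose loss causes Legius syndrome in people, rose with BDNF at 2 h and lay below its DMSO level when IBET858 was added to BDNF. It read 0.021, -0.19 and -0.22 on DMSO arrays and 0.75, 0.70 and 0.78 on BDNF arrays. IBET858 arrays read -0.40, -0.53 and -0.43, and arrays with both agents -0.52, -0.64 and -0.63. Arrays with both agents were as low as those with IBET858 alone and overlapped them, and BDNF arrays were above all others. BDNF raised Spred1 by 0.87 ± 0.066 (1.82-fold, adjusted p = 1.57e-09). With IBET858 present the BDNF difference was -0.15 (interval -0.28 to -0.0095, adjusted p = 0.127), which was not called (without both arrays that stand apart it was, adjusted p = 0.0438), and the interaction was -1.01 ± 0.093 (adjusted p = 1.75e-07). Spred1 fell by 0.32 ± 0.066 with IBET858 alone (adjusted p = 0.00123). Of its 8 probe sets, at -0.59 to -0.014 in this comparison, 4 were called lower.

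At 12 h Spred1 was raised by BDNF with and without IBET858. DMSO arrays read -0.25, -0.17 and -0.22, and IBET858 arrays 0.083, 0.099 and -0.045. BDNF arrays read 0.93, 0.98 and 0.99, and arrays with both agents 1.33, 1.16 and 1.15. None of the 4 groups overlapped, and arrays with both agents were the highest. BDNF raised Spred1 by 1.18 ± 0.066 without and 1.17 ± 0.066 with IBET858 (adjusted p = 9.36e-12). The interaction was -0.0096 (interval -0.20 to 0.18), and after quantile normalization it was -0.36 and called (adjusted p = 0.0212). IBET858 alone, which had lowered Spred1 at 2 h, raised it by 0.26 ± 0.066 at 12 h (adjusted p = 0.0023). Of its 8 probe sets, at -0.064 to 0.83 in this comparison, 3 were called higher. With BDNF present IBET858 raised Spred1 by 0.25 ± 0.066 (adjusted p = 0.00307), a difference that turned to -0.031 when the deposited values were quantile-normalized.

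Spred2, which also recruits neurofibromin, rose with BDNF at 2 h, and that difference was not called when IBET858 was present. At 2 h it read -0.31, -0.21 and -0.081 on DMSO arrays and 0.99, 1.11 and 1.00 on BDNF arrays. IBET858 arrays read -0.36, -0.32 and -0.16, and arrays with both agents 0.034, -0.070 and -0.17. BDNF arrays stood alone, and the other 3 groups overlapped. BDNF raised Spred2 by 1.24 ± 0.079 (2.36-fold, adjusted p = 1.11e-10), the BDNF difference with IBET858 was 0.21 (interval 0.049 to 0.38, adjusted p = 0.0608), and the interaction was -1.02 ± 0.11 (adjusted p = 2.13e-06). Its 5 probe sets gave interactions from -1.80 to -0.076, and 2 of them were called. For the BDNF difference with IBET858 they ran from -0.21 to 0.75, and 1 was called higher. The difference of 0.21 was called after quantile normalization (0.31, adjusted p = 0.00895), with array weights (0.22, adjusted p = 0.0275) and without both arrays that stand apart (adjusted p = 0.0427). It was also called without the third IBET858 array (0.27, adjusted p = 0.03) and without the third array with both agents (0.26, adjusted p = 0.0401).

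At 12 h Spred2 read -0.28, -0.21 and -0.038 on DMSO arrays and -0.53, -0.45 and -0.40 on IBET858 arrays. BDNF arrays read 0.96, 0.78 and 0.80, and arrays with both agents 0.80, 0.67 and 0.64. The groups with BDNF overlapped each other and were both above the groups without it. BDNF raised Spred2 by 1.02 ± 0.079 without and 1.17 ± 0.079 with IBET858 (adjusted p = 1.75e-10). It fell by 0.29 ± 0.079 with IBET858 alone (adjusted p = 0.00457), which was no longer called with the median of its probe sets (-0.19, adjusted p = 0.239) or after quantile normalization (-0.11, adjusted p = 0.317).

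For Spred1 and Spred2 the change of the interaction from 2 h to 12 h was itself called. It was 1.00 ± 0.13 for Spred1 (adjusted p = 2.6e-05) and 1.17 ± 0.16 for Spred2 (adjusted p = 3.87e-05). For Spry2 it was 1.09 ± 0.37 (adjusted p = 0.0713), which was not called. It was called with array weights (0.84, adjusted p = 0.0264) and in 4 of the 24 fits that left out 1 array (highest adjusted p = 0.135). Without the first DMSO array at 2 h the Spry2 value was 0.79 (adjusted p = 0.0641). Without both arrays that stand apart it was 0.70 (adjusted p = 0.105). From 2 h to 12 h with both agents present, Spred1 rose by 1.81 ± 0.066 and Spred2 by 0.77 ± 0.079. This contrast was added after the values had been seen.

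Spred3, the remaining SPRED gene, had a larger BDNF difference at 12 h than at 2 h. At 2 h it read -1.34, 0.0097 and 0.12 on DMSO arrays and 0.64, 0.45 and 0.51 on BDNF arrays. IBET858 arrays read -0.0097, -0.29 and 0.043, and arrays with both agents -0.023, -0.17 and -0.16. The first DMSO array lay far below its group, and BDNF arrays were above all others. BDNF raised Spred3 by 0.93 ± 0.24 (adjusted p = 0.0045), and by 0.47 (adjusted p = 0.0122) without that array. With IBET858 present the BDNF difference was -0.031 (interval -0.53 to 0.46), which was not called. The interaction of -0.97 ± 0.34 (adjusted p = 0.0872) was not called, and 2 of 12 fits that left out 1 array called it. Without the first DMSO array it was -0.50 (adjusted p = 0.109). With both agents Spred3 lay -0.65 ± 0.24 from BDNF alone (adjusted p = 0.0465). That call was lost without any 1 of the 6 arrays compared (highest adjusted p = 0.125) and when only the 2 h arrays were fitted (adjusted p = 0.113).

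At 12 h Spred3 separated all 4 groups. DMSO arrays read -0.83, -0.18 and -0.29, and IBET858 arrays -1.39, -1.19 and -1.31. BDNF arrays read 1.61, 1.62 and 1.54, and arrays with both agents 0.48, 0.35 and 0.39. IBET858 arrays were below their controls both without and with BDNF. BDNF raised Spred3 by 2.02 ± 0.24 (4.06-fold, adjusted p = 4.64e-07), more than at 2 h by 1.09 ± 0.34 (adjusted p = 0.0202). Spred3 fell by 0.87 ± 0.24 with IBET858 in the absence of BDNF (adjusted p = 0.00434; -0.32 and adjusted p = 0.358 after quantile normalization) and by 1.18 ± 0.24 in its presence (adjusted p = 0.000238; a log2 difference of -1.18). The interaction of -0.32 (interval -1.01 to 0.38) was not called.

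Errfi1, whose protein docks on EGF receptor family kinases and stops them, rose with each agent and most with both. At 2 h it read -1.25, -0.90 and -0.86 on DMSO arrays, and 0.20, 0.19 and 0.19 on BDNF arrays. IBET858 arrays read 0.17, 0.24 and 0.21, and arrays with both agents 1.64, 1.73 and 1.66. The single-agent groups overlapped each other, DMSO arrays were below them and arrays with both agents above. BDNF raised Errfi1 by 1.20 ± 0.099 (adjusted p = 5.98e-09), IBET858 raised it by 1.21 ± 0.099 (adjusted p = 1.07e-08), and both together by 2.68 ± 0.099 (6.41-fold, adjusted p = 4.87e-15). The interaction of 0.27 (interval -0.022 to 0.56) was not called, and it was called at -0.52 (adjusted p = 0.000311) after quantile normalization. It was called in the other direction with array weights (0.35, adjusted p = 0.00798) and without both arrays that stand apart (0.39, adjusted p = 0.0188).

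At 12 h the BDNF difference of Errfi1 had shrunk and that of IBET858 remained. DMSO arrays read -1.48, -1.38 and -1.19, and BDNF arrays -0.91, -1.002 and -1.05. IBET858 arrays read -0.14, -0.35 and -0.57, and arrays with both agents 0.28, 0.40 and 0.45. The 4 groups did not overlap and rose in the order DMSO, BDNF, IBET858 and both. BDNF raised Errfi1 by 0.36 ± 0.099 (adjusted p = 0.00542), a change of -0.84 ± 0.14 from 2 h (adjusted p = 0.000118), and IBET858 raised it by 1.00 ± 0.099 (adjusted p = 3.03e-08). With both agents Errfi1 lay 1.36 ± 0.099 above BDNF alone.

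**Figure D3:**
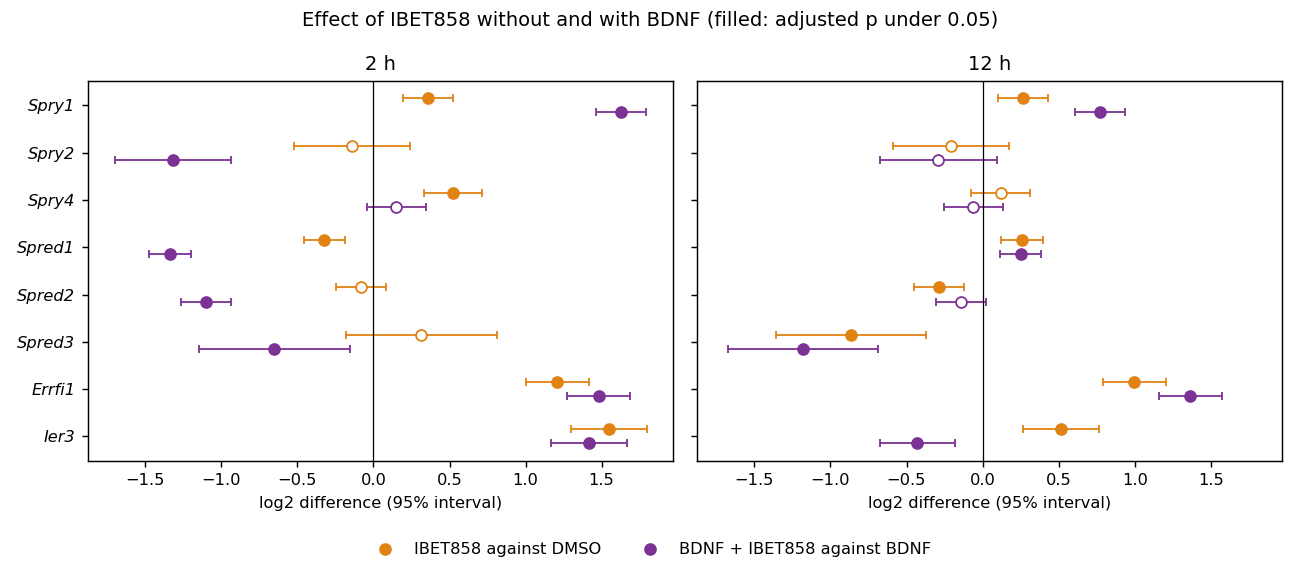
Log2 difference made by IBET858 in each gene, without BDNF (orange, IBET858 against DMSO) and with BDNF (purple, both agents against BDNF), at 2 h and 12 h. Bars are 95% intervals with 3 arrays per group, and filled points are called. Errfi1 lies at 1.21 and 1.48 at 2 h, Spry2 at -0.14 and -1.32, and at 12 h Spred3 lies at -0.87 and -1.18.

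Ier3 responded first to IBET858 and later to BDNF. At 2 h it read -0.88, -0.37 and -0.24 on DMSO arrays and -0.23, -0.32 and -0.29 on BDNF arrays. IBET858 arrays read 1.15, 1.05 and 0.95, and arrays with both agents 1.22, 1.12 and 1.07. The groups with IBET858 overlapped each other, as did the groups without it, and the former were higher on every array. IBET858 raised Ier3 by 1.55 ± 0.12 (2.92-fold, adjusted p = 4.31e-09). BDNF gave 0.22 (interval -0.033 to 0.47), and 0.025 without the first DMSO array. The BDNF difference was called without the third DMSO array (0.34, adjusted p = 0.0393) and after quantile normalization (0.28, adjusted p = 0.0278). With IBET858 present, BDNF gave 0.086 (interval -0.16 to 0.34), which after quantile normalization was -0.92 and called.

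At 12 h Ier3 was highest with BDNF alone. DMSO arrays read -1.04, -0.74 and -0.72, and IBET858 arrays -0.32, -0.49 and -0.14. BDNF arrays read 0.67, 0.63 and 0.55, and arrays with both agents 0.14, 0.20 and 0.23. None of the groups overlapped. BDNF raised Ier3 by 1.45 ± 0.12 (adjusted p = 2.96e-09), IBET858 raised it by 0.52 ± 0.12 (adjusted p = 0.00105), and with both it lay -0.43 ± 0.12 from BDNF alone (adjusted p = 0.00502). The interaction was -0.94 ± 0.17 (adjusted p = 0.00052).

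Adding IBET858 to BDNF split the members at 2 h. Spry1, Errfi1 and Ier3 were higher than with BDNF alone and Spry2, Spred1, Spred2 and Spred3 were lower, that is 3 and 4 of 8, where 12.2% of all genes were higher and 14.9% lower. At 12 h Spry1, Spred1 and Errfi1 were higher and Spred3 and Ier3 lower, 3 and 2 of 8, beside 21.1% and 25.6% of all genes. BDNF in the presence of IBET858 raised 4 of 8 at 2 h (Spry1, Spry2, Spry4 and Errfi1; 6.45% of all genes) and lowered none (14.7% of all genes). At 12 h it raised 7 of 8 (16.1% of all genes) and lowered none (23.2%), and Spry1 was the gene not called, at -0.12 (adjusted p = 0.252).

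The interaction of the agents was called for 1 gene upward (Spry1) and 3 downward (Spry2, Spred1, Spred2) at 2 h, where 3.11% and 5.29% of all genes were called. At 12 h it was called for Spry1 upward and Ier3 downward, 1 each, beside 8.95% and 7.24%. The interaction changed between the times upward for 2 members and downward for 2 (5.19% and 3.45% of all genes). The IBET858 difference changed between the times upward for Spred1 and downward for Spry4, Spred3 and Ier3, 1 and 3 of 8 (15.8% and 17.4% of all genes). The BDNF difference changed upward for Spred1, Spred3 and Ier3 and downward for Errfi1, 3 and 1 of 8 (12.9% and 11.9%). Without the first DMSO array at 2 h it was also called upward for Spry2 (0.60, adjusted p = 0.0269) and Spry4 (0.38, adjusted p = 0.00435), and leaving out 1 array gave 3 to 6 members called (4 with all arrays).

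Against DMSO, arrays with both agents differed in 6 of 8 members at 2 h (41.8% of all genes) and in 7 of 8 at 12 h (53% of all genes). The Spry2 difference at 2 h, 0.56 ± 0.18 (adjusted p = 0.0196), was 0.26 and not called without the first DMSO array. Between 2 h and 12 h of the same treatment, 1 member was called in DMSO (Errfi1 at -0.34 ± 0.099, adjusted p = 0.0376; 7.54% of all genes; without the first DMSO array at 2 h also Spry1 at -0.26, Spred3 at -0.50 and Ier3 at -0.53), 6 in IBET858 (47.4%), 5 in BDNF (39.4%) and 6 with both agents (60.8%). Spry1 and Errfi1 fell by 1.13 and 1.30 with both agents present, while Ier3 fell by 1.37 in IBET858 and rose by 0.89 in BDNF.

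Probe sets of a gene mostly told the same account, with exceptions in Spry4, Spred1 and Spred2. Both Spry2 probe sets gave BDNF differences at 2 h of 1.81 and 1.94, and both Errfi1 probe sets gave 1.17 and 1.23. The Spry4 probe sets ranged from 0.38 to 1.34. Of the 8 Spred1 probe sets, 7 lay between 0.79 and 1.11, and the other lay at 0.21. Of the 5 Spred2 probe sets, 4 lay between 1.19 and 1.84, and the other lay at 0.15. With IBET858 added to BDNF at 2 h that probe set lay at -0.11, while the other Spred2 probe sets lay between -1.84 and -0.88. Over the 24 arrays the correlation between probe sets of a gene ran from 0.33 to 0.91 for Spred2 (median 0.63) and from 0.57 to 0.98 for Spred1 (median 0.92), and it was 0.98 for the pair of Spry2 and 0.97 for the pair of Errfi1.

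**Figure D4:**
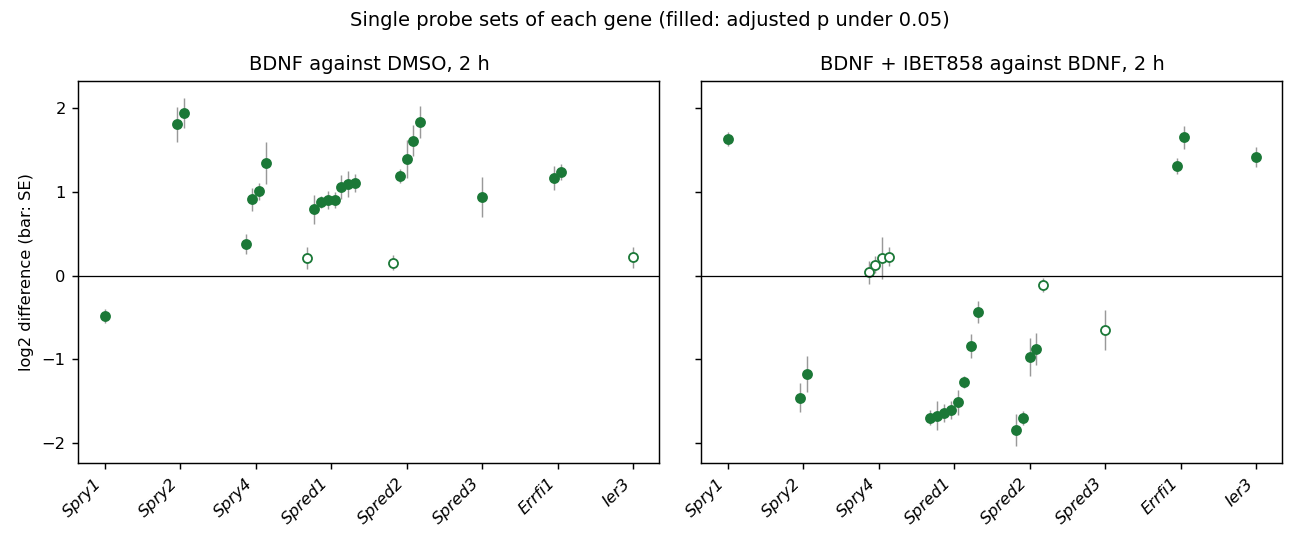
Each probe set of the 8 genes as a point with its standard error, for BDNF against DMSO and for both agents against BDNF, at 2 h (log2 difference, 3 arrays per group). Filled points are called with p-values adjusted over all probe sets. One Spred2 probe set lies at 0.15 and -0.11 while the other 4 lie at 1.19 to 1.84 and -1.84 to -0.88, and the Spred3 probe set, called in the fit of genes in both comparisons, is open in the panel on the right.

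Across the 24 arrays the members fell into courses that can be described by their correlations, which share the arrays and the treatments and are given with no test. Spry2 ran closest to Spred2 (r = 0.96), then to Spred3 (0.86), Spred1 (0.82) and Spry4 (0.82). Spry1 ran against Spred1 (r = -0.71) and with Errfi1 (0.71), and Errfi1 ran with Ier3 at 0.67. Among all other named genes, those most like Spry2 were Tpbg (r = 0.97), a membrane glycoprotein, and Nrn1 (0.96), the activity-regulated neuritin. Spred2 was most like Nab2 (0.97), a corepressor of EGR proteins, and Med14 (0.95), a Mediator subunit. Spry4 was most like the ERK phosphatase Dusp4 (0.96) and the cell cycle inhibitor Cdkn1a (0.95).

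Spred1 was most like Ube2f (0.95) and Rwdd4a (0.95), and Spred3 most like the kinase Sik3 (0.97) and Lrrc59 (0.95). Errfi1 was most like the antiproliferative gene Btg1 (0.98) and the immediate early gene Ier5 (0.98). Spry1 was most like the general transcription factor Gtf2b (0.96) and Tob1 (0.93), and Ier3 most like the repressor Bcl6 (0.95) and Cd68 (0.90).

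Other genes of the pathway were taken from 7 lists that are counted over the genes measured. Of all genes, BDNF at 2 h raised 9.79% and lowered 18.1%. With both agents against BDNF at 2 h, 12.2% of all genes were higher and 14.9% lower. Among 24 other feedback inhibitors of receptors and Ras-ERK signalling, BDNF at 2 h raised 12 and lowered 3 (median 0.21, all genes -0.0043). The dual-specificity phosphatases Dusp1, Dusp4 and Dusp14, which remove phosphate from MAP kinases, rose by 2.23, 2.12 and 2.06. For these 24 genes, 5 were higher and 9 lower with both agents than with BDNF at 2 h, and the 3 named phosphatases were not called (0.40, -0.30 and 0.20). Among 20 ERK-dependent transcription factors, BDNF at 2 h raised 17 and lowered none (median 0.84), with Egr2 at 4.50, Egr1 at 2.61 and Fosb at 2.41. With both agents against BDNF at 2 h, 8 of the 20 were higher and 6 lower, Fosb was higher by 0.44, and Egr2 and Egr1 were not called (-0.078 and 0.10).

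Upstream of Ras, BDNF at 2 h raised 3 and lowered 1 of 19 receptor tyrosine kinases (Fgfr1 at 1.55, Met at -0.69) and raised 4 and lowered 2 of 15 adaptors and exchange factors (the insulin receptor substrate Irs2 at 2.80). It raised 3 and lowered 3 of 14 Ras GTPases and GTPase-activating proteins, and raised 4 and lowered 2 of 12 RAF, MEK and ERK kinases and scaffolds. Of 18 partners and regulators of the members, 4 rose and none fell, among them the survival factor Mcl1 by 1.35 and Siah2, a ubiquitin ligase that targets Sprouty proteins, by 0.76. Beside these counts, 9.79% of all genes rose and 18.1% fell with BDNF at 2 h. Medians of these 5 lists lay between -0.11 and 0.055.

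IBET858 at 12 h, a comparison in which 22.9% of all genes were higher and 25.8% lower, moved genes of every list. It raised 11 and lowered 6 of the 24 other feedback inhibitors, with Dusp14 at 1.19 and the FGF receptor antagonist Il17rd at 0.99. Among the partners 5 rose and 4 fell, with the kinase Src at -1.15, the ubiquitin ligase Nedd4l at -1.13 and the caveolar protein Cav1 at -0.87. Receptors gave 2 higher and 4 lower (Met -2.16, Fgfr1 1.44), adaptors 9 and 3, the Ras list 5 and 6, the kinase list 5 and 2, and the transcription factors 10 and 4 (Junb 1.65, Egr1 1.14).

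Markers of cell types are given beside these results as group means of centred values, since levels cannot be read. The 14 neuronal markers ran from -0.40 in IBET858 at 12 h to 0.35 with both agents at 12 h. BDNF at 12 h raised 8 and lowered 5 of them, beside 16.9% and 24.2% of all genes. Of 10 astrocyte markers, 3 fell with BDNF (24.2% of all genes) and 4 with IBET858 (25.8%) at 12 h. Their group means lay between -0.25 and 0.27. With both agents at 2 h the 12 vascular and fibroblast markers had a group mean of 0.44, against -0.096 to 0.014 in the other 7 groups, and 4 of them were higher than with BDNF alone (12.2% of all genes). The 10 microglial markers had a mean of 0.34 in that group, against -0.27 to 0.11 elsewhere. Group means lay between -0.18 and 0.089 for 9 oligodendrocyte markers and between -0.094 and 0.34 for 8 progenitor markers. Their part in the members' differences was not tested.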

How the data were processed

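The authors deposited log2 expression values made with RMA, per the submitters' processing notes; the version is not given in the sources used here, and the log base is that of RMA, since the table does not state it. Every one of the 45101 probe sets had a median of 0 over the 24 arrays (tolerance 1e-06), so levels had been removed and no filter on dim probe sets could be made. RMA gives all arrays 1 distribution, so a change in total mRNA cannot be seen, and precision is limited by how many arrays there are.

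Genes were assigned by the platform annotation: 34945 probe sets named 1 gene after 64 controls were set aside, 932 named several and 9211 were not listed. Symbols were taken from RefSeq (GRCm38.p6) through Entrez IDs for 34754 of the probe sets, whether or not the symbol changed. Probe sets of a gene were averaged. A limma 3.58.1 model (R 4.3.3) with 8 group means, 16 residual degrees of freedom and eBayes gave 19 contrasts, 2-sided, adjusted over 18193 genes. Replicate numbers were not used as a block. The procedure was tested on simulated data.

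The members, the lists and the contrasts were chosen with earlier results of these data known. All 8 members are named, with the 2 most correlated genes of each and up to 3 called genes of largest change per list (BDNF at 2 h, IBET858 at 12 h). Alternatives were the median of probe sets, leaving out probe sets ending in _x_at, _s_at or _a_at, each probe set alone, median shift, quantile normalization, array weights, a robust prior, single-time fits, a replicate block and leaving out each array; leaving out both arrays that stand apart was added after seeing the data.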

Additional observations from a re-analysis of the deposited data

Results flagged for a closer look

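Differences between 2 h and 12 h were tested as contrasts of their own in limma, with n = 3 arrays per group, and those called for a member are listed here as log2 values with no explanation. For Spred1 the IBET858 difference was 0.58 higher at 12 h than at 2 h (adjusted p = 4.15e-05). It went from a fall at 2 h (4 of 8 probe sets called) to a rise at 12 h (3 of 8 called). For Spry4 it differed by -0.41 (adjusted p = 0.0202; -0.25 and adjusted p = 0.0465 without the first DMSO array at 2 h, not called without any 1 of 4 other arrays, in any of its 4 probe sets alone, or after quantile normalization, at -0.13 with adjusted p = 0.388). For Spred3 it differed by -1.18 (adjusted p = 0.00868; -0.71 without that DMSO array, and -0.59 and not called after quantile normalization, adjusted p = 0.276) and for Ier3 by -1.03 (adjusted p = 5.71e-05).

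The BDNF difference was larger at 12 h by 0.31 for Spred1 (adjusted p = 0.0166), by 1.09 for Spred3 (adjusted p = 0.0202; not called without any 1 of 3 DMSO arrays, highest adjusted p = 0.0695, nor after quantile normalization, at 0.85 with adjusted p = 0.101) and by 1.23 for Ier3 (adjusted p = 1.29e-05). For Errfi1 it changed by -0.84 (adjusted p = 0.000118). Without the first DMSO array at 2 h the Spred3 value was 1.55 (adjusted p = 1.63e-06) and the Spred1 value 0.24 (adjusted p = 0.044). The Spred1 value was 0.098 and not called without the probe sets ending in _x_at, _s_at or _a_at, and 0.15 and not called after quantile normalization (adjusted p = 0.331).

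The interaction of the agents changed from 2 h to 12 h by 1.00 for Spred1 (adjusted p = 2.6e-05) and by 1.17 for Spred2 (adjusted p = 3.87e-05). It changed by -0.76 for Spry1 (adjusted p = 0.00314) and by -0.81 for Ier3 (adjusted p = 0.0372), and the Ier3 call was lost in 15 of the 24 fits that left out 1 array (highest adjusted p = 0.0701). Without the first DMSO array at 2 h the values were -0.89 for Spry1 (adjusted p = 1.51e-05) and -1.01 for Ier3 (adjusted p = 0.00067). After quantile normalization neither of these calls held, at -0.56 for Spry1 (adjusted p = 0.0763) and -0.096 for Ier3 (adjusted p = 0.848), and the Ier3 call was also lost with the replicate number as a block (adjusted p = 0.0644).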

How the results depend on the processing

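Of 152 member values, 98 were called, and 80 of these kept their direction and call in every one of the settings that use gene means; of the 54 not called, 31 were called in at least 1 of these settings. Because the deposited values are centred per probe set, quantile normalization gives the deviations from the probe set medians the same distribution on every array. After quantile normalization of the deposited values, 3 reversed: Ier3, both agents against IBET858 at 2 h (-0.92), Errfi1, the interaction at 2 h (-0.52), and Spred1, both agents against BDNF at 12 h (-0.031). The cause was not tested. In that setting 4 members (2 in the fit as reported) were called for the interaction at 12 h and 3 (5) for BDNF at 12 h against 2 h. For DMSO at 12 h against 2 h, with 1 member called, the count was 0 with arrays shifted to a median of 0, 2 after quantile normalization, 3 with array weights, 4 without both arrays that stand apart, and 0 to 4 when 1 array was left out. Leaving out 1 array gave 6 members called for both agents against BDNF at 2 h in every case (7 with all arrays) and changed 40 of 1248 member values to not called and 19 to called.

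Single probe sets gave the opposite sign in 13 values called for the gene or the probe set. For Spred1 these were 0.22 (both against DMSO, 2 h), -0.064 (IBET858, 12 h), -0.036 (both against BDNF, 12 h), -0.54 (time difference of BDNF) and -0.40 (BDNF, 12 h against 2 h). For Spred2 they were -0.52 (both against DMSO, 2 h), 0.075 and 0.13 (IBET858, 12 h), 0.51 (BDNF, 12 h against 2 h), -0.081 (both agents, 12 h against 2 h) and -0.081 (time difference of the interaction). For Spry4 they were 0.071 (time difference of IBET858) and 0.027 (IBET858, 12 h against 2 h).

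Within each time, same-numbered arrays did not deviate together (correlations of deviations from group means between -0.14 and 0.15 at 2 h and between -0.15 and 0.090 at 12 h). Whether the numbers pair arrays across the times was not tested. With the replicate number as a block, 3 of 152 values were no longer called, among them Spred3 for both agents against BDNF at 2 h (-0.65, adjusted p = 0.0599), and 0 members were called for DMSO at 12 h against 2 h.

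Counts over all genes moved by more than 1.5 times after quantile normalization for IBET858 at 2 h (1835 higher and 2580 lower, 1027 and 1686 as reported) and for BDNF with IBET858 present at 12 h (1717 and 2013, against 2923 and 4227), and the split of the interaction at 2 h went from 566 and 962 to 1089 and 1075. With array weights they moved for BDNF at 2 h (3186 and 4756, against 1781 and 3287), IBET858 at 2 h (2949 and 2879), the interaction at 2 h (1199 and 1533), the time difference of BDNF (3476 and 3302, against 2349 and 2169) and that of the interaction (1466 and 1165, against 945 and 628). A filter on dim probe sets was not run, because the table holds no levels, and the count without probe sets ending in _x_at, _s_at or _a_at was not given, because Ier3 has no other.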
